A study of Mus musculus with 6 samples.

Results

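The replication licensing genes described here are Mcm2, Mcm3, Mcm4, Mcm5, Mcm6, Mcm7, Mcm10, Cdc6, Cdt1 and Cdc45. They were chosen by name, and all 10 were found among the 43629 genes of the count table, each with enough reads to be tested. The RNA came from cultured epidermal keratinocytes of 3 control mice and 3 Dnmt1Δ/Δep mice, taken at postnatal day 3 and grown for 5 days in low-calcium medium (one legend of the study gives a shorter culture). Poly(A) RNA was sequenced to between 53433121 and 115526598 reads counted in genes per library. In Dnmt1Δ/Δep mice a Cre recombinase driven by the keratin 5 promoter, which is active in basal cells of stratified epithelia from embryonic life on, deletes floxed Dnmt1, the gene of the maintenance DNA methyltransferase. Control mice in the study carried floxed Dnmt1 on 1 or both alleles without Cre, and which of these each control mouse here had is not given in the sources used here. All mice were female and of a mixed background. Dnmt1 itself had 394, 379 and 324 CPM (counts per 1000000 counted reads) in the controls, against 49.7, 54.3 and 50.7 CPM after the deletion, so the loss was seen in every library labelled with it (log2 fold change −2.83, adjusted p = 8.117e-05, edgeR).

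Licensing is the step that makes a replication origin ready for use. In G1 phase the origin recognition complex, Cdc6 and Cdt1 load the Mcm2 to Mcm7 complex, a ring of related ATPases, onto DNA as an inactive double hexamer. At the start of S phase Cdc45 and the GINS complex join the ring to form the active helicase, with Mcm10 needed for its activation, and geminin binds Cdt1 so that no origin is licensed again in the same cycle. These genes are transcribed mostly around the G1 to S transition, many of them as targets of E2F factors, and in epidermis they are a mark of proliferating basal cells.

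E2F-type letters stand in the promoters of several members, and these sites are shown because E2F is the best known regulator of the group. RefSeq promoters (GRCm38.p6, from 250 bases before to 50 bases after the annotated start) were found for 9 of the 10 members, all except Mcm4. They were searched on both strands for the E2F-type letters TTTCCCGC, TTTCGCGC, TTTGCCGC and TTTGGCGC, and overlapping matches were joined. Of the 9 members, 6 (66.7%) had a match, against 2.60% of the 27025 genes with a promoter window and 23 of 71 (32.4%) genes of the replication and cell cycle lists used below. The matches are printed within 30 bases each, read 5′ to 3′ on the strand of the gene, with the matching letters in capitals.
Mcm3, chr1:20820275-20820304: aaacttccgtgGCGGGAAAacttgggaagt
Mcm3, chr1:20820263-20820292: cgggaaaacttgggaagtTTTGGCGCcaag
Mcm5, chr8:75109347-75109376: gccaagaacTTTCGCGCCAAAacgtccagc
Mcm6, chr1:128359795-128359824: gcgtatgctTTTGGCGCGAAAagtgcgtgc
Mcm6, chr1:128359734-128359763: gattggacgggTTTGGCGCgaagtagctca
Mcm7, chr5:138172030-138172059: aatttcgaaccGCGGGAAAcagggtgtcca
Mcm7, chr5:138171849-138171878: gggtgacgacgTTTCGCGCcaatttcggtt
Cdc6, chr11:98908002-98908031: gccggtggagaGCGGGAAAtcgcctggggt
Cdt1, chr8:122568035-122568064: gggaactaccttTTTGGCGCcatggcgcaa
Mcm7 has another window with no match. Mcm3, Mcm6 and Mcm7 each held a pair of separate matches, and in Mcm5 and in the first site of Mcm6 matches on opposite strands overlap to give one longer palindrome-like run. Mcm5 and Cdt1 lie on the plus strand, as does Cdc6, and Mcm3, Mcm6 and Mcm7 lie on the minus strand. The windows of Mcm2, Mcm10 and Cdc45 did not hold these letters. CCAAT, the box bound by NF-Y, was found on either strand in 7 of the 9 member windows (77.8%), in 39 of 71 (54.9%) genes of the lists and in 41.1% of all genes. Among tested genes outside the group, the median log2 fold change was −0.00 for the 11084 without an E2F-type match, −0.06 for the 494 with 1 match and −0.19 for the 17 with more. RefSeq and GENCODE place some starts differently, so that the windows of Cdc6 and Mcm7 lie inside the GENCODE gene. A match is a run of letters and not evidence of binding.

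The subunits of the Mcm2 to Mcm7 ring had lower mean levels in Dnmt1Δ/Δep keratinocytes. Their log2 fold changes lay between −0.47 and −0.32, which is 19.9% to 27.9% fewer CPM, and 2 of the 6, Mcm4 and Mcm6, passed the test across all genes (edgeR quasi-likelihood, Benjamini-Hochberg adjusted p of at most 0.05). All values below are CPM scaled by TMM, and a log2 fold change is Dnmt1Δ/Δep over control.

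Mcm4, on chr16:15623897-15637400 (minus strand, GRCm38), had 302, 262 and 239.5 CPM in control replicates 1, 2 and 3 and 182, 194 and 203 CPM in Dnmt1Δ/Δep replicates 1, 2 and 3. The groups did not overlap, and Mcm4 fell from 268 ± 31.4 to 193 ± 10.3 CPM (SD, n = 3 per group), a log2 fold change of −0.47 with a standard error of 0.11 (adjusted p = 0.04283). With the replicate number as a block the same difference had an adjusted p of 0.05057. Mcm6, on chr1:128331590-128359664 (minus strand), had 291, 305 and 279 CPM in the controls and 184, 231 and 219 CPM in Dnmt1Δ/Δep. There was no overlap here either, and the Mcm6 controls were the most alike of any member, with a coefficient of variation of 4.44%. Mcm6 fell by 27.6%, a log2 fold change of −0.47 ± 0.11 (SE, adjusted p = 0.0439). Both proteins can form a smaller complex with Mcm7, whose gene did not pass. Neither call held in every fit without one library. The adjusted p of Mcm4 was 0.1315 without control replicate 2 and 0.1573, 0.09342 and 0.1015 without Dnmt1Δ/Δep replicate 1, 2 or 3. That of Mcm6 was 0.164 and 0.07464 without control replicate 2 or 3, and 0.1306, 0.05801 and 0.1151 without Dnmt1Δ/Δep replicate 1, 2 or 3.

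Mcm7, on chr5:138164583-138172422 (minus strand), had 155, 151 and 127 CPM in the controls and 104, 121 and 122 CPM in Dnmt1Δ/Δep. The groups were apart by the gap between 122 and 127, and the log2 fold change of −0.32 ± 0.11 (SE) did not pass across all genes (adjusted p = 0.1396). The gene hosts the microRNA genes Mir25 and Mir93. Mir25 and Mir93 are listed at 0 in all 6 libraries, but both lie in exon sequence of Mcm7 on the same strand, and the authors' counting left out reads that overlap more than one gene, so these zeros say nothing of their level. Of the exon sequence of Mcm7, 7.25% is shared with Ap4m1 on the opposite strand.

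Mcm2, on chr6:88883474-88898780 (minus strand), had 198, 194 and 154 CPM in the controls and 125, 148 and 142 CPM in Dnmt1Δ/Δep. All 3 controls were above all 3 Dnmt1Δ/Δep libraries, the nearest values being 154 and 148 CPM, and the log2 fold change was −0.40 ± 0.13 (SE, adjusted p = 0.1009). Mcm5, on chr8:75109569-75128439 (plus strand), had 268, 245 and 193 CPM against 166, 185 and 177 CPM, also without overlap (log2 fold change −0.42 ± 0.13, adjusted p = 0.1034). Mcm3, on chr1:20802968-20820312 (minus strand), had 262, 230.04 and 187 CPM against 164, 188 and 175 CPM. Here control replicate 3 was below Dnmt1Δ/Δep replicate 2, so the groups overlapped (log2 fold change −0.36 ± 0.14, adjusted p = 0.1627). Summed over Mcm2 to Mcm7, the ring genes took 1476, 1388 and 1180 CPM in the controls and 925, 1067 and 1037 CPM in Dnmt1Δ/Δep, and the mean of the latter was 0.749 of the former.

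The loading factors Cdc6 and Cdt1 did not pass the test and their groups overlapped. Cdc6, the ATPase that brings Cdt1 and the ring to the origin recognition complex (chr11:98907801-98923940, plus strand), had 40.4, 24.7 and 18.2 CPM in the controls and 26.9, 24.4 and 24.0 CPM in Dnmt1Δ/Δep. The controls held both the highest and the lowest library, with a coefficient of variation of 41.2%, and the log2 fold change of −0.15 had a 95% interval of −0.77 to 0.48 (adjusted p = 0.8266). Without control replicate 1 the value for Cdc6 was 0.22, so its direction is not settled by these libraries. Cdt1, the partner that holds the ring during loading (chr8:122568015-122573554, plus strand), had 75.2, 65.7 and 49.3 CPM against 48.0, 51.7 and 55.2 CPM. Only control replicate 3 lay within the Dnmt1Δ/Δep range, and the log2 fold change of −0.30 had a 95% interval of −0.67 to 0.08 (adjusted p = 0.3265).

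The activation factors Mcm10 and Cdc45 had differences of the size seen in the ring but were above the adjusted threshold in the main fit (edgeR, TMM, genotype alone). Of 13 alternative fits, Mcm10 passed in 3 and Cdc45 in 1. Mcm10, which has no sequence relation to the ring subunits despite its name (chr2:4989714-5012791, minus strand), had 60.4, 55.9 and 47.8 CPM in the controls and 35.03, 41.6 and 40.9 CPM in Dnmt1Δ/Δep. The groups did not overlap, and the log2 fold change of −0.48 ± 0.13 (SE) was close to those of Mcm4 and Mcm6 (adjusted p = 0.05542). Cdc45, which clamps to the ring as part of the helicase (chr16:18780447-18811987, minus strand), had 38.1, 39.8 and 33.1 CPM against 25.9, 29.7 and 28.9 CPM. Cdc45 was likewise lower in each Dnmt1Δ/Δep library than in each control, with a log2 fold change of −0.39 ± 0.11 (adjusted p = 0.08033).

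**Figure D1:**
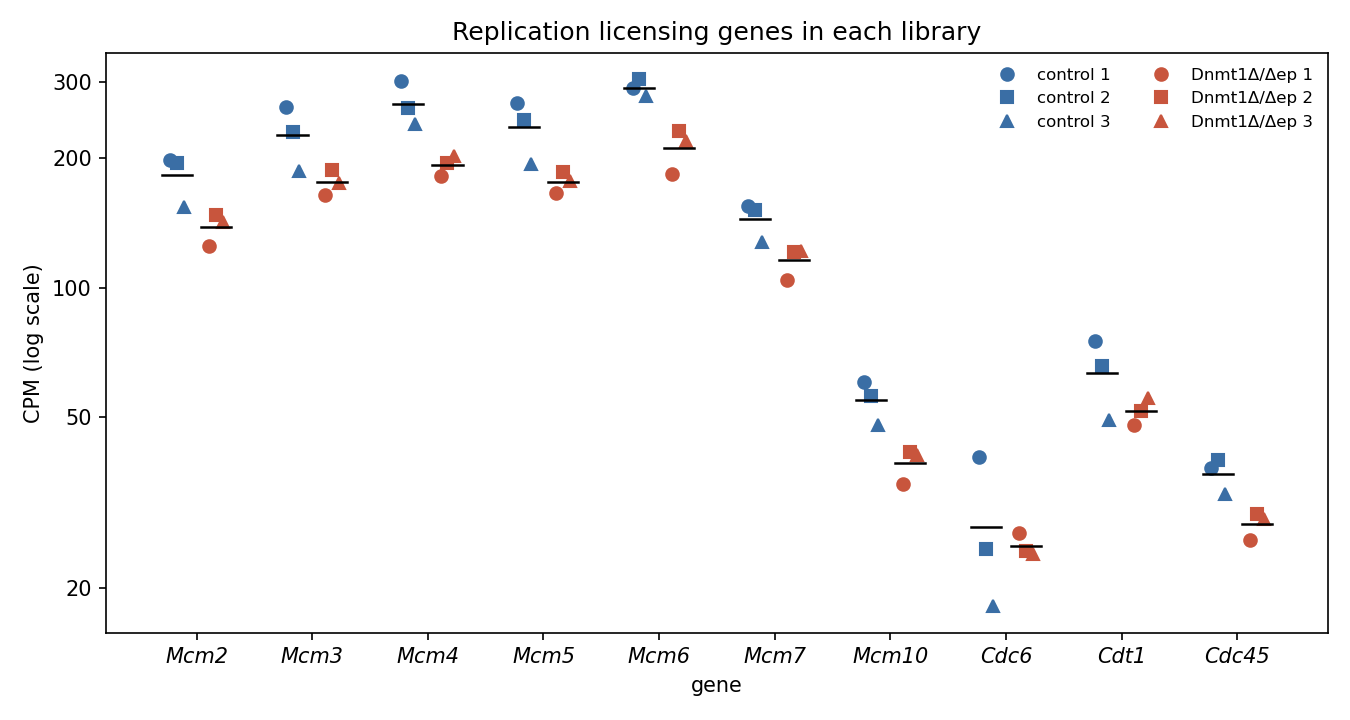
CPM (log axis) of the 10 licensing genes in each of the 3 control and 3 Dnmt1Δ/Δep libraries, with one point per library and a bar at the group mean. Mcm6 runs from 279 to 305 CPM in the controls and from 184 to 231 CPM in Dnmt1Δ/Δep, while the Cdc6 controls, from 18.2 to 40.4 CPM, span the whole Dnmt1Δ/Δep range.

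Across the members, all 10 log2 fold changes were below 0, where 50.1% of the 16829 genes tested were, and their median was −0.40 against −0.00 over all genes. At an adjusted p of at most 0.05 (edgeR), 2 of the 10 fell and none rose, against 1.66% of all genes that fell and 7.71% that rose. At an unadjusted p of 0.05, 8 of 10 were lower and none was higher, against 7.79% of all genes that were lower and 15.8% that were higher. In 7 of 10 every control library was above every Dnmt1Δ/Δep library, against 11.7% of all genes, and in none was it the reverse, against 18.2%. Low counts make many genes noisy, so the same shares were taken over the 9310 genes with a mean of at least 10 CPM, where they were 58.5% below 0, 2.21% at the adjusted p, 10.4% at the unadjusted p and 15.6% without overlap. Upwards, 4.52% of those genes passed the adjusted p, 10.6% the unadjusted p and 12.7% had no overlap. The members were chosen together for one shared role, with earlier results of these data known. They are transcribed together in the cell cycle, so their counts are not 10 separate observations. No member reached a 2-fold change, which with the adjusted p 0.392% of all genes did downwards and 6.03% upwards (0.183% and 1.95% of those at 10 CPM or more). The 95% intervals of all 10 ended above −1, the lowest bounds being −0.77 in both Mcm10 and Cdc6. In bulk RNA, fewer cells in or near S phase and less of these RNAs per cell cannot be told apart.

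**Figure D2:**
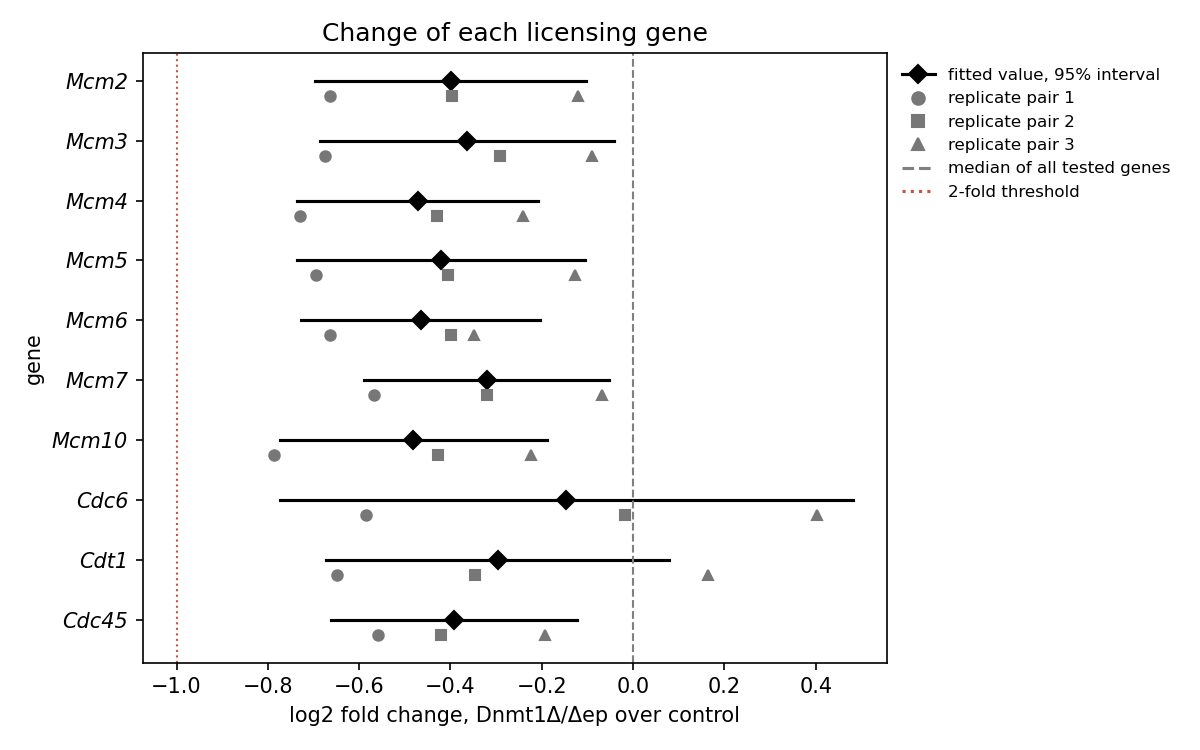
Log2 fold change (Dnmt1Δ/Δep over control) of each member with its 95% interval from edgeR, beside the log2 ratios of the 3 same-numbered pairs of libraries. The intervals of 8 members lie below 0, those of Cdc6 and Cdt1 include 0, and the ratios of pair 1 are more negative than those of pair 3 in every member.

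The size of the difference varied between the same-numbered pairs of libraries. Libraries with the same replicate number shared a sequencing lane, and within lanes the median log2 ratio over the 10 members was −0.66 in pair 1, −0.40 in pair 2 and −0.12 in pair 3, where the medians over all genes were 0.00, −0.00 and 0.02. The ratios were negative in all 3 pairs for 8 members, and for Cdc6 and Cdt1 they were positive in pair 3, at 0.40 and 0.16. Control replicate 1 was the highest library for 8 members and control replicate 2 for Mcm6 and Cdc45. Control replicate 3 was the lowest control for all 10, and Dnmt1Δ/Δep replicate 1 was the lowest library for every member except Cdc6, whose lowest was control replicate 3. The controls were also the more variable group, with a larger coefficient of variation than the Dnmt1Δ/Δep libraries in 9 members, Mcm6 being the exception. Without control replicate 3 the number of members that passed the adjusted p was 4 (Mcm2, Mcm4, Mcm5 and Mcm10), and the number of all genes that fell went from 279 to 133. Without control replicate 2 or any one Dnmt1Δ/Δep replicate no member passed, and the number of all genes that fell was between 35 and 79. Blocking on the replicate number left 1, Mcm6.

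Per length of exon sequence, the ring genes were the more abundant members and Mcm10 and Cdc6 the least. Mean levels in the controls on the RPKM scale (reads divided by exon length and library size) were 74.6 ± 8.76 for Mcm4, 62.5 ± 2.78 for Mcm6, 60.3 ± 10.1 for Mcm3 and 59.0 ± 9.63 for Mcm5 (SD, n = 3). Mcm7 and Mcm2 were lower, at 32.6 ± 3.34 and 26.2 ± 3.50 RPKM. Exon length was that of all annotated exons together, 6956 bases for Mcm2, and the order of the levels depends on it. The ranges of Mcm6, Mcm3 and Mcm5 overlapped, while Mcm4 was above Mcm6, Mcm5 above Mcm7 and Mcm7 above Mcm2 in all libraries compared. Then came Cdt1 at 20.2 ± 4.18 RPKM, which overlapped Mcm2, Cdc45 at 10.5 ± 0.993, Mcm10 at 7.11 ± 0.831 and Cdc6 at 5.31 ± 2.19, of which Mcm10 and Cdc6 overlapped. In the Dnmt1Δ/Δep libraries the order was the same except that Mcm3, at 46.9 ± 3.18 RPKM, came before Mcm6, at 45.3 ± 5.26 RPKM, with overlapping ranges. Mcm2, at 19.9 ± 1.69 RPKM, was then above Cdt1, at 16.4 ± 1.16 RPKM, without overlap.

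The ring holds its 6 subunits in equal numbers, while their shares of the summed RPKM were unequal in both genotypes. These shares depend on the exon length used, that of all annotated exons together, which was 6956 bases for Mcm2 and 3589 for Mcm4. In control mean CPM, which leaves length out, Mcm2 (182) was above Mcm7 (144). Whether the transcripts themselves were in unequal numbers was not tested. Of the summed RPKM of Mcm2 to Mcm7, Mcm4 made up 23.7% ± 0.953 in the controls and 22.8% ± 0.914 in the Dnmt1Δ/Δep libraries, and Mcm2 made up 8.30% ± 0.310 and 8.41% ± 0.122. Mcm7 had the one share whose groups did not overlap, at 10.1%, 10.6% and 10.4% in the controls and 10.9%, 11.0% and 11.3% in the Dnmt1Δ/Δep libraries (exact two-sided permutation test, p = 0.1, the smallest that 3 against 3 allows). For the other 5 subunits the exact permutation p lay between 0.3 and 0.9, in an unpaired test that cannot reach 0.05. Within same-numbered pairs the share of Mcm4 was lower by a similar amount each time, with differences of −0.84, −0.81 and −0.92 percentage points in pairs 1, 2 and 3. Mcm3 differed by 0.027, 1.17 and 1.25 points and Mcm7 by 0.80, 0.42 and 0.89 points, while Mcm2, Mcm5 and Mcm6 changed sign between pairs. An exact paired test of 3 pairs cannot go below 0.25 and was not run. No other paired test was made of these shares.

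**Figure D3:**
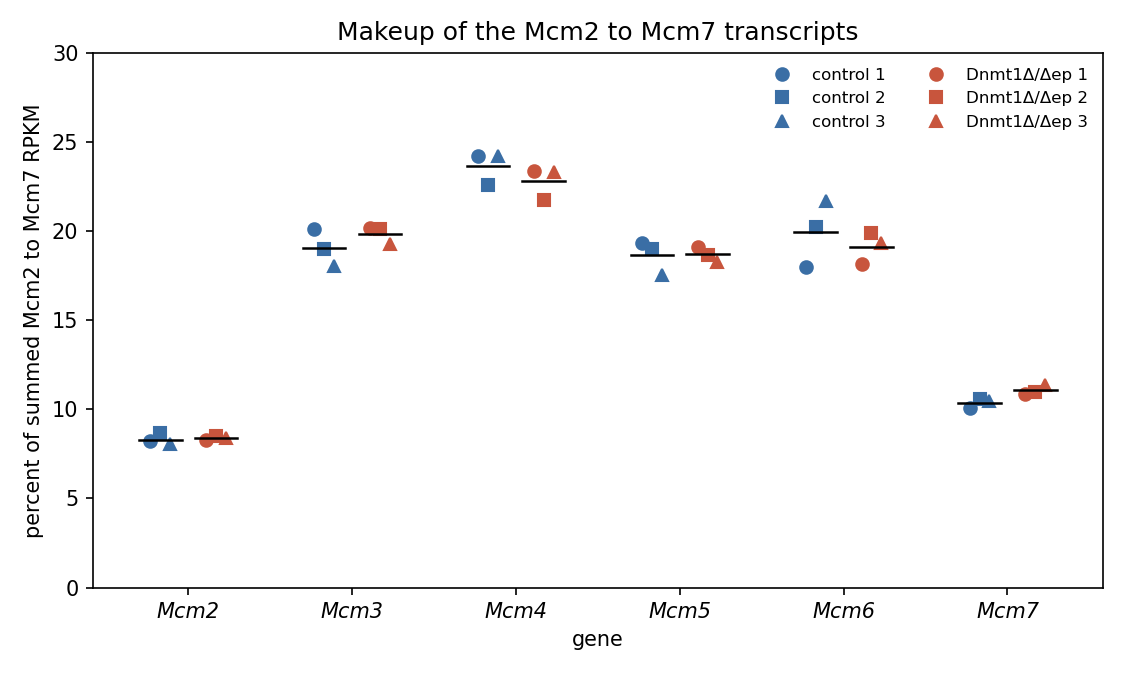
Share of each subunit in the summed RPKM of Mcm2 to Mcm7 (percent), one point per library and a bar at the group mean. Mcm7 lies above its control range of 10.1% to 10.6% in all 3 Dnmt1Δ/Δep libraries, and the points of the other 5 subunits overlap between genotypes.

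Ratios between a licensing factor and its partner were also compared, each with an exact two-sided permutation test whose smallest p is 0.1. Cdt1 over Gmnn, the gene of geminin, was 1.10 ± 0.109 in the controls and 1.23 ± 0.178 in the Dnmt1Δ/Δep libraries (SD, n = 3, exact p = 0.3). Cdc6 over Orc1 was 0.889 ± 0.230 and 1.01 ± 0.117 (exact p = 0.5). Cdc7 over Dbf4, the kinase and its activator, was 0.222 ± 0.0531 and 0.269 ± 0.0288 (exact p = 0.3), and was higher in Dnmt1Δ/Δep in all 3 pairs, by 0.017, 0.062 and 0.060. The 6 ratios compared, which include those with neighbouring genes below, and the 6 shares above had Benjamini-Hochberg adjusted exact p values of 0.45 or more and 0.6 or more within each family.

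Among the genes that act with the members, most had values below 0 as well. The 12 lists of replication and cell cycle genes had 90 genes besides the members, of which 89 were tested. Of these, 79 had a log2 fold change below 0, where 50.1% of all genes did and 58.5% of those at 10 CPM or more. At the adjusted p 11 fell and none rose, where 1.66% of all genes fell and 7.71% rose, and the median was −0.31. With the replicate number as a block, 21 fell, among them 3 GINS genes in place of 1, 5 clamp and RPA genes in place of 3 and 5 mitosis genes in place of 2, and the number over all genes went from 279 to 603. Of the 11, Clspn was under the threshold in all 6 fits that left out one library, and the other 10 were each above it in some of them, with highest adjusted p values of 0.09839 to 0.1796. Their number was 1 without control replicate 2 or Dnmt1Δ/Δep replicate 1 or 3, and 2 without Dnmt1Δ/Δep replicate 2, in fits where the number over all genes was between 35 and 79.

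Origin recognition genes had no common direction. Of the 6 Orc genes, 3 were below 0 and 3 above, none passed, and the median was −0.01. Orc1, whose protein is the subunit most tied to the cell cycle, had the lowest value at −0.29 (30.6 ± 5.25 CPM in controls, 24.96 ± 1.67 CPM in Dnmt1Δ/Δep), and Orc5 the highest at 0.26. Among 7 genes of licensing inhibitors and Cdt1 turnover 6 were below 0 and none passed. Gmnn had 73.1, 53.7 and 47.3 CPM against 45.0, 43.1 and 39.0 CPM without overlap (log2 fold change −0.45, adjusted p = 0.1542), and Cul4b, a cullin of the ligase family that degrades Cdt1, had 0.04. Of the kinase genes that trigger the loaded ring, Dbf4 had −0.30 and Cdc7 −0.05, and neither passed.

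The 4 GINS genes, whose products join Cdc45 on the ring, were all lower in each Dnmt1Δ/Δep library than in each control, with a median of −0.44. Over all genes 11.7% were lower without overlap, and 15.6% of those at 10 CPM or more. Gins2 fell, with 21.3, 18.9 and 16.7 CPM against 13.8, 12.1 and 11.9 CPM (log2 fold change −0.59, adjusted p = 0.03928), and 67.3% of its exon sequence is shared with Gse1 on the opposite strand. Gins4 had the smallest difference, −0.38, and with the block it passed as well (adjusted p = 0.03701). Of 9 genes of origin firing and fork protection 8 were below 0. Clspn is the gene of Claspin, a fork protein that passes the checkpoint signal from ATR to Chk1. Its change was the largest among the members and the 12 lists of replication and cell cycle genes. Clspn had 146, 148 and 133 CPM in the controls and 85.6, 90.9 and 93.7 CPM in Dnmt1Δ/Δep (log2 fold change −0.66, adjusted p = 0.006026). Donson, at 0.04, was the one gene of this list above 0.

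Genes of DNA synthesis came next. All 12 genes of the clamp, clamp loader, RPA and Okazaki fragment group were below 0 (median −0.38), and 3 fell. Rpa2, a subunit of the single-strand binding protein, fell from 73.5 ± 8.34 to 49.8 ± 2.49 CPM (log2 fold change −0.56, adjusted p = 0.02288). Rfc3 of the clamp loader (−0.44, adjusted p = 0.04283) and the ligase gene Lig1 (−0.44, adjusted p = 0.03715) fell too, while Dna2 had −0.61 and Rfc4 −0.14 without passing. Of 12 polymerase and primase genes 11 were below 0 and Pole3 fell (−0.40, adjusted p = 0.0487), with Prim1 the lowest at −0.45 and Pold4 the one gene above 0, at 0.47 (0.59 without Dnmt1Δ/Δep replicate 3, adjusted p = 0.04661). Rrm1, the large subunit of ribonucleotide reductase, fell from 737 ± 53.9 to 522 ± 50.4 CPM (log2 fold change −0.50, adjusted p = 0.03692). In the same list of nucleotide synthesis genes Tk1 had 0.28 without passing, but leaving out control replicate 1 gave 0.76, which passed (adjusted p = 0.03007), and leaving out control replicate 3 gave 0.030.

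Regulators and later cell cycle genes completed the comparison. Of 16 genes of E2F factors, pocket proteins and G1/S cyclins 14 were below 0 and none passed, from Rbl2 at −0.44 to Ccnd1 at 0.41. Both passed without control replicate 1, Rbl2 at −0.60 (adjusted p = 0.03284) and Ccnd1 at 0.94 (adjusted p = 0.02601), and Ccnd1 was 0.14 without control replicate 3. With the block Rbl2 (adjusted p = 0.04465) and E2f2 (adjusted p = 0.04021) passed, E2f2 being named here after its value was seen. The histone chaperone genes Asf1b (−0.55, adjusted p = 0.03882) and Chaf1b (−0.42, adjusted p = 0.04592) fell, and Uhrf1, whose protein brings Dnmt1 to replicated DNA, had −0.25 without passing. Of 8 mitosis genes all were below 0, with a median of −0.40 equal to that of the members when rounded, and Top2a (−0.41, adjusted p = 0.04024) and Aurkb (−0.46, adjusted p = 0.04391) fell. Mki67 was the gene of that list nearest 0, at −0.21, with 378, 441 and 922 CPM against 461, 309 and 738 CPM, and its value was 0.29 without control replicate 3. Mcm8 and Mcm9, relatives of the ring genes that act in recombination, had −0.24 and 0.01 (Mcm9 was at −0.0197 with DESeq2), and Mcmdc2 had too few reads to be tested. The G1 inhibitor genes Cdkn2a (0.161 to 1.56 CPM, log2 fold change 3.22, adjusted p = 0.004414) and Cdkn2b (7.54 to 19.2 CPM, 1.35, adjusted p = 0.006911) rose.

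**Figure D4:**
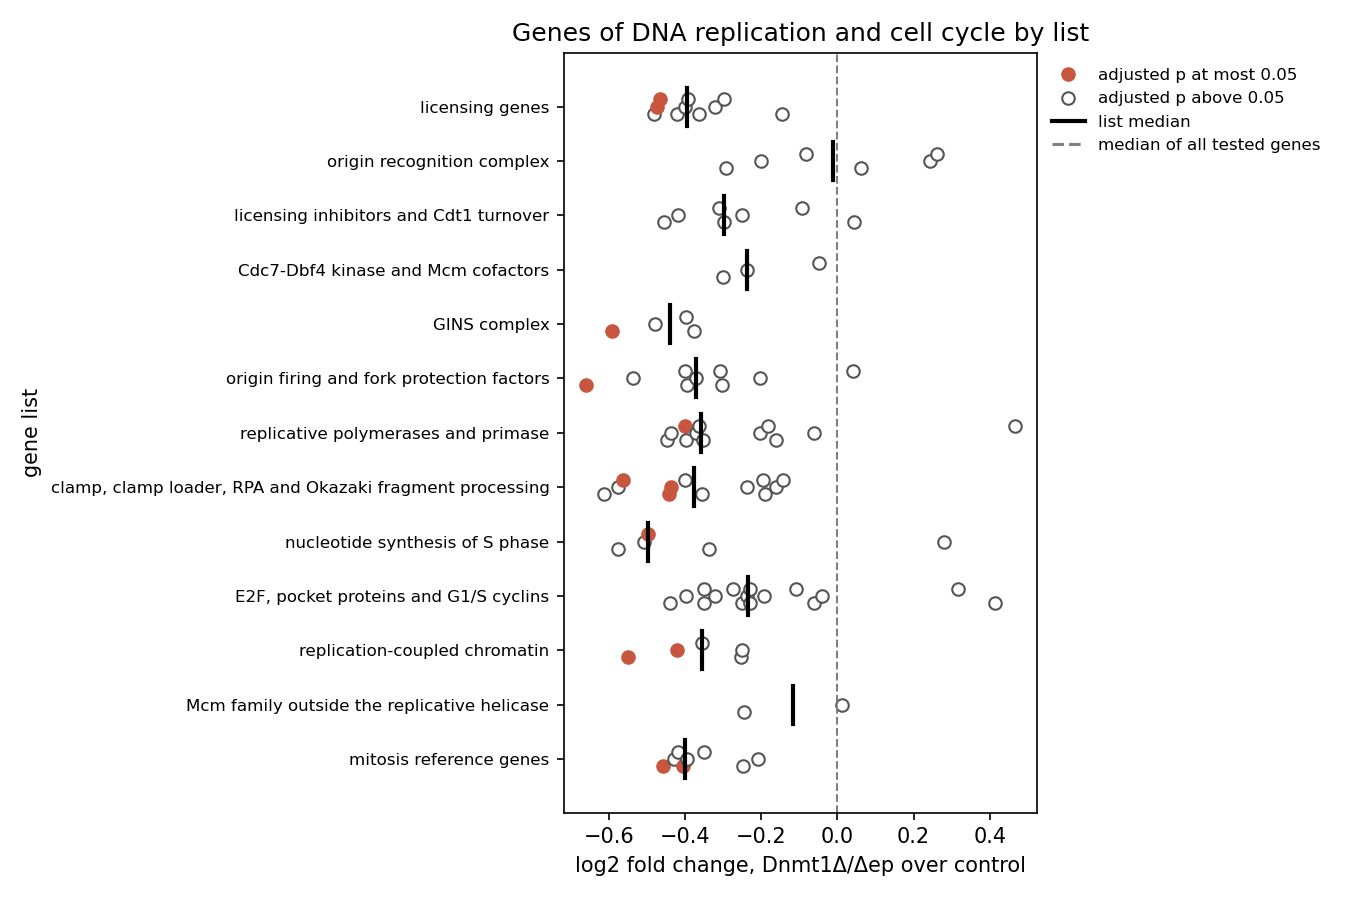
Log2 fold change (Dnmt1Δ/Δep over control, edgeR) of every tested gene of the licensing group and of 12 lists of replication and cell cycle genes, one point per gene and a bar at the list median. The median is −0.40 for the licensing genes and for the mitosis genes, −0.44 for GINS and −0.01 for the origin recognition complex.

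For 3 members a neighbouring gene starts on the opposite strand within 1000 bases, and these neighbours did not pass the test. Prkdc, 466 bases from the start of Mcm4, had 52.0 ± 8.75 CPM in controls and 50.8 ± 11.3 CPM in Dnmt1Δ/Δep (log2 fold change −0.03, adjusted p = 0.9539). Ap4m1, 420 bases from Mcm7, had −0.19 (adjusted p = 0.3839), and Ufd1, 208 bases from Cdc45, had −0.06 (adjusted p = 0.8051). The difference between partners was tested as a ratio in each library. Cdc45 over Ufd1 was 0.400, 0.485 and 0.384 in the controls and 0.284, 0.358 and 0.372 in the Dnmt1Δ/Δep libraries, without overlap (exact permutation p = 0.1, the smallest possible). Of the exon sequence of Cdc45, 5.96% is shared with Ufd1 on the opposite strand. For Mcm4 over Prkdc the exact p was 0.2, with differences of −3.33, −0.21 and −0.63 in the 3 pairs, and for Mcm7 over Ap4m1 it was 0.4.

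The genes outside the group whose profile over the 6 libraries lay nearest to the mean profile of the members were Shmt1, Wdr18, Cdca4, Gfer and Pole2. Likeness was the root mean square difference of mean-centred log2 CPM, which was 0.0205 for Shmt1, a folate enzyme that feeds thymidylate synthesis, and 0.0400 for Pole2, a subunit of DNA polymerase epsilon. Among the members themselves it ran from 0.0294 for Mcm3 to 0.129 for Mcm6 and 0.283 for Cdc6.

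The cultures were checked for their cell types. The basal keratinocyte genes Krt5 and Krt14 were abundant in all libraries and fell in Dnmt1Δ/Δep (log2 fold changes −0.50 and −0.61, adjusted p = 0.038 and 0.028, edgeR), and they make up most of the summed level of the 5 basal markers, 27212 to 30936 CPM in the controls and 20468 to 21127 CPM in Dnmt1Δ/Δep. The other 3, Trp63 at −0.26, Itga6 at 0.18 and Itgb4 at 0.17, had overlapping groups and did not pass. The 5 melanocyte markers summed to 204 to 536 CPM in the controls and 646 to 873 CPM in Dnmt1Δ/Δep. Of the 5, 4 were higher without overlap, where 18.2% of all genes were and 12.7% of those at 10 CPM or more. None passed the adjusted p in the fit without a block. With the replicate number as a block 4 of the 5 passed (Pmel, adjusted p = 0.04939, Dct, 0.02656, Tyrp1, 0.0257, and Mlana, 0.04255), and all 5 were higher in Dnmt1Δ/Δep in each of the 3 pairs. In that fit 1173 of all 16829 genes rose at the adjusted p by at least 2-fold. The number that rose without the fold threshold is not given here. Fibroblast markers summed to 12.2 to 28.0 and 12.0 to 58.8 CPM. All 6 had log2 fold changes above 0 (median 0.99) and none passed. The pairs differed in direction, with log2 ratios for Col1a1 of 1.86, −0.94 and 2.29 in pairs 1, 2 and 3. Leukocyte markers summed to 0.275 to 1.01 and 2.52 to 4.41 CPM, with Ptprc, Cd3e and Lyz2 at or near 0. Of the leukocyte genes tested, Csf1r (log2 fold change 2.67, adjusted p = 0.02714) and Itgam (2.35, adjusted p = 0.04662) rose, both from levels under 1 CPM (adjusted p = 0.05337 and 0.01953 with the block), and Cd74 (3.30, adjusted p = 0.1428) did not pass. Differentiation markers summed to 701 to 1237 and 619 to 1091 CPM, of which Sbsn, at 503 to 906 CPM over all libraries, was the larger part in each, and none passed. Within that list Krt1 had −2.30 and Krt10 −1.58 with overlapping groups, while Ivl had 1.61 and Lor 1.70 without overlap. Krt1 had 53.2, 356 and 530 CPM in the controls, highest in control replicate 3, which was the lowest control for every licensing gene. The part of these shifts in the licensing values was not tested.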

How the data were processed

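RNA-seq was made from keratinocyte cultures, 3 per genotype, at 53433121 to 115526598 gene counts each. The study's methods name 3 control and 3 Dnmt1Δ/Δep mice as their source. The authors trimmed adapters, removed ribosomal reads, used STAR for alignment and htseq-count for reads with one mapping position. What they deposited for genes is a table of whole, unscaled counts. Unique mapping can lower the counts of genes with near-identical copies, and whether counting used strand is not given in the sources used here, so antisense overlaps may share reads. The 5 entries naming no gene (8.73% to 12.9% of reads) were left out. The 18 columns of per-library values in other tables and the authors' tables of comparisons (fold changes and p-values) were not used. Ensembl identifiers were paired with symbols from GENCODE M21 for 97.5% of 43629 genes.

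Genes were kept by filterByExpr (minimum count 10, minimum total count 15), scaled by TMM and tested with the quasi-likelihood test of edgeR 4.0.16 in R 4.3.3 with genotype as the only term, two-sided, adjusted by Benjamini and Hochberg over all 16829 genes tested, with DESeq2 1.42.0 as an alternative. A call with fold needed a change of at least 2-fold besides an adjusted p no higher than 0.05. Members had 976 to 29698 counts per library, so counting error is small beside the spread between mice. RPKM was computed from the counts and the combined length of all annotated exons of a gene. Same-numbered libraries shared a lane (3 lanes) and their deviations from the group means correlated at 0.46, 0.40 and 0.31. A lane effect and a pairing of the mice cannot be told apart here, and the sample titles state no pairing. Alternatives were other scalings, filters, the replicate block and leaving out each library. The members and lists were chosen with earlier results of these data known. Named were all members, listed genes that passed or had the extreme values of their list, head-to-head neighbours, the 5 nearest profiles, Dnmt1, Cdkn2a, Cdkn2b and markers. One listed gene that this rule names is not reported here. Promoters were read from RefSeq, GRCm38.p6.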

Additional observations from a re-analysis of the deposited data

How the results depend on the processing

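The median log2 fold change of the licensing genes stayed between −0.49 and −0.33 in all 13 alternatives, none of which gave a 2-fold call. The number of members that fell at the adjusted p, 2 of 10, was 5 with DESeq2, 1 with library totals in place of TMM, 0 with a filter at 1 RPKM, 1 with the replicate block, and 0 to 4 when one library was left out. The number at an unadjusted p of 0.05 was 4 to 9 without one library, 4 without control replicate 2 or Dnmt1Δ/Δep replicate 1. For the 89 genes of the 12 lists, the number that fell, 11, was 30 with DESeq2, 4 with the RPKM filter, 21 with the replicate block and 1 to 10 without one library, and the number that rose, 0, was 0 to 3 without one library. Pairing by replicate number changed the call of Mcm4 among the members (adjusted p = 0.05057). Over all genes the number that fell, 279, moved as well: it was 773 with DESeq2, 242 with library totals, 158 with the RPKM filter, 603 with the replicate block, 650 without control replicate 1, 133 without control replicate 3 and 35 to 79 without any other one library. The cause of these changes was not tested.

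Directions reversed for genes near 0. Without one library the log2 fold change ran from −0.38 to 0.22 for Cdc6, −0.20 to 0.099 for Prkdc, −0.068 to 0.21 for Cul4b, −0.21 to 0.22 for Cdc7, −0.026 to 0.097 for Donson, −0.25 to 0.023 for Rfc4, −0.042 to 0.085 for Mcm9 and −0.59 to 0.29 for Mki67. Mcm9 was also −0.0197 with DESeq2, −0.019 with the size factors of DESeq2 in edgeR and −0.028 with no filter. With 3 mice per group, exact tests of single ratios cannot go below 0.1.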
